A study of Homo sapiens with 12 samples.

Results

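The genes described here are the IL6 family cytokines of MDA-MB-231-ERβ cells, their receptor chains and the signalling genes next to them: the ligands IL6, IL11, LIF and CLCF1, the receptor chains IL6R, IL6ST (gp130), LIFR and OSMR, the transcription factor STAT3 and its feedback inhibitor SOCS3. Each was taken as the entry of the count table whose symbol equals that name, which gave 10 genes of 12451 entries, and all 10 were tested among 11303 genes with an RPKM (reads per kilobase of exon and per M reads, where M stands for mega) of at least 1 in at least 3 libraries. MDA-MB-231 is a triple negative breast cancer cell line, and the MDA-MB-231-ERβ line carries ERβ (gene ESR2) under a doxycycline (dox) promoter, so the receptor in these cells is an induced one. All 12 libraries came from dox-treated cells, although dox is missing from the sample labels of E2+ TNFα and is taken for that group from the treatment protocol. Cells received vehicle (veh) or 1 nM estradiol (E2) for 5 days, and the groups labelled TNFα and E2+ TNFα also had TNFα at 20 ng/ml during the last 3 h, with 3 replicates in each of the 4 groups. Nothing in the labels ties the replicates to separate experiments, so the p-values measure the spread between these dishes.

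Cytokines of this family signal through a shared chain, gp130, which pairs with a chain that sets which ligand is seen: IL6R for IL6, IL11RA for IL11, LIFR for LIF, and OSMR or LIFR for oncostatin M. Receptor assembly activates JAK kinases, these phosphorylate STAT3, and STAT3 turns on target genes that include SOCS3, which shuts the receptor down again. In breast cancer cells IL6, IL11 and LIF are known as NFκB-responsive, secreted factors of invasion and inflammation. STAT3 activity depends on phosphorylation, which mRNA counts do not measure.

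Library totals ran from 35.8 to 39.9 M reads in veh, 19.5 to 30.5 M in TNFα, 7.65 to 15.8 M in E2 and 16.8 to 36.7 M in E2+ TNFα. The ESR2 transcript was present in every library, at 456 to 486 CPM (counts per M reads after TMM normalisation) in veh, 228 to 281 CPM in TNFα, 292 to 321 CPM in E2 and 404 to 507 CPM in E2+ TNFα. It was thus lower in TNFα than in E2+ TNFα (log2 fold change 0.81 for E2+ TNFα over TNFα, adjusted p = 5.73e-05), and the part of this in the results below was not tested. Transcripts that mark this line (VIM, CD44, CAV1 and AXL) were at 152 to 1886 CPM. Of 3 receptors that define triple negative cells by their low level, 1 had an entry, ERBB2, at 85.6 to 123 CPM. Of 11 markers of immune, endothelial, fibroblast and fat cells, 4 had an entry (CD14, CD68, LYZ and LUM), at 0 to 106 CPM. The veh libraries stood apart from the other 9: principal component 1, with 71.9% of the variance, placed veh at -107 to -89.2 and all others at 12.1 to 61.6. Fold changes against veh also followed the GC content of a gene's exons over the 11303 genes (Spearman rho 0.706 for TNFα, 0.665 for E2+ TNFα and 0.655 for E2). Between treated groups, rho was -0.210 for E2+ TNFα over TNFα and -0.331 for E2+ TNFα over E2. For exon length, rho was 0.459 for E2+ TNFα over E2 and 0.050 for E2+ TNFα over TNFα. No batch is named in the labels, so an effect of the veh preparation and an effect of veh treatment cannot be told apart, and the 3 comparisons against veh share those libraries. Changes against veh are therefore also given with GC and length trends removed, a setting chosen after seeing the data. In bulk RNA, fewer cells that express a gene and less RNA of that gene per cell cannot be told apart.

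IL6 was high under TNFα and held well below that level when E2 was present. It lies at chr7:22725442-22732002 on the plus strand (hg38). Its level was 130, 138 and 147 CPM in the veh replicates, 973, 933 and 1094 CPM in TNFα, 94.0, 89.8 and 104 CPM in E2, and 353, 323 and 405 CPM in E2+ TNFα. No 2 groups overlapped, and the order was TNFα, E2+ TNFα, veh and E2. TNFα raised IL6 by a log2 fold change of 2.85 (SE 0.12, 7.23-fold; edgeR quasi-likelihood F test, Benjamini-Hochberg adjusted p = 1.72e-10) without E2 and by 1.91 (SE 0.12, 3.75-fold, adjusted p = 1.15e-07) with E2, and the rise without E2 was 3.50 once GC and length trends were removed. E2+ TNFα against TNFα was -1.47 (SE 0.12, 2.77-fold lower, adjusted p = 1.57e-07), a fall that sat just under the size threshold of 1.5 used for calls. That value was -1.501 with DESeq2 size factors and -1.53 with GC and length trends removed, both past the threshold. E2 alone gave -0.53 against veh (adjusted p = 0.000835), but 0.12 (adjusted p = 0.370) once GC and length trends were removed, so the lower IL6 of E2 cells depends on the processing. E2+ TNFα was above veh by 1.38 (adjusted p = 1.07e-07), too little for a call, whereas with GC and length trends removed it was above by 1.97, which passed.

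IL11 fell furthest with E2 of the 10 genes in E2+ TNFα against TNFα. The gene lies at chr19:55364382-55370463 on the minus strand, and its 3 veh libraries stood at 179, 159 and 165 CPM. TNFα libraries held 461, 331 and 696 CPM, E2 libraries 23.8, 30.6 and 28.3 CPM, and E2+ TNFα libraries 28.6, 23.4 and 26.7 CPM. Both groups without E2 were above every library with E2, and the E2 and E2+ TNFα ranges overlapped. E2+ TNFα against TNFα was -4.24 (SE 0.23, 18.9-fold lower, adjusted p = 1.52e-09), and E2 against veh was -2.61 (SE 0.22, 6.11-fold lower, adjusted p = 5.15e-08). With E2 present, TNFα gave a difference of -0.06 (95% interval -0.51 to 0.38, adjusted p = 0.901). The rise under TNFα alone was 1.57 (SE 0.20, adjusted p = 4.80e-06) and rested in part on TNFα replicate 3, without which it was 1.24. It was 0.83 with GC and length trends removed and 0.74 (adjusted p = 0.218) with 1 factor of unwanted variation taken from housekeeping genes. The E2 results held in both settings: E2+ TNFα against TNFα was -4.16 and E2 against veh -3.47 with GC and length trends removed. E2+ TNFα against veh was -2.68 (adjusted p = 4.78e-08), and -3.33 with trends removed.

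LIF, the leukemia inhibitory factor, showed no fall with E2 that passed the test, and was lowest in veh. It lies at chr22:30240447-30257923 on the minus strand. Values were 126, 123 and 126 CPM in veh, 478, 406 and 514 CPM in TNFα, 306, 397 and 336 CPM in E2 and 407, 392 and 490 CPM in E2+ TNFα. Only veh stood apart from all other groups, and E2+ TNFα overlapped both E2 and TNFα. E2 against veh gave 1.47 (SE 0.13, 2.77-fold, adjusted p = 1.13e-07), TNFα against veh 1.90 (adjusted p = 2.10e-08) and E2+ TNFα against veh 1.78 (adjusted p = 2.77e-08). The agents together gave no difference from either alone that passed the test: E2+ TNFα against TNFα was -0.12 (95% interval -0.39 to 0.16, adjusted p = 0.511) and against E2 0.31 (0.04 to 0.59, adjusted p = 0.203). With GC and length trends removed the rises against veh were 0.87, 1.29 and 1.25 for E2, TNFα and E2+ TNFα, all smaller and under the size threshold.

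CLCF1, a ligand of the ciliary neurotrophic factor receptor (chr11:67364168-67374177, minus strand), had no change past the size threshold. Its libraries stood at 35.4, 34.3 and 37.0 CPM in veh, 27.3, 21.7 and 25.0 CPM in TNFα, 24.5, 22.8 and 31.5 CPM in E2 and 29.2, 26.7 and 37.4 CPM in E2+ TNFα. The veh libraries were above those of TNFα and E2, while E2+ TNFα overlapped the other 3 groups. CLCF1 fell by 0.53 in TNFα (adjusted p = 0.00683) and by 0.43 in E2 (adjusted p = 0.0234) against veh, both under the size threshold, and E2+ TNFα against veh was at -0.19 (adjusted p = 0.285). With GC and length trends removed these values were -1.28, -1.31 and -0.87, larger but still under the threshold. CLCF1 differed by 0.34 (adjusted p = 0.110) between E2+ TNFα and TNFα.

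**Figure D1:**
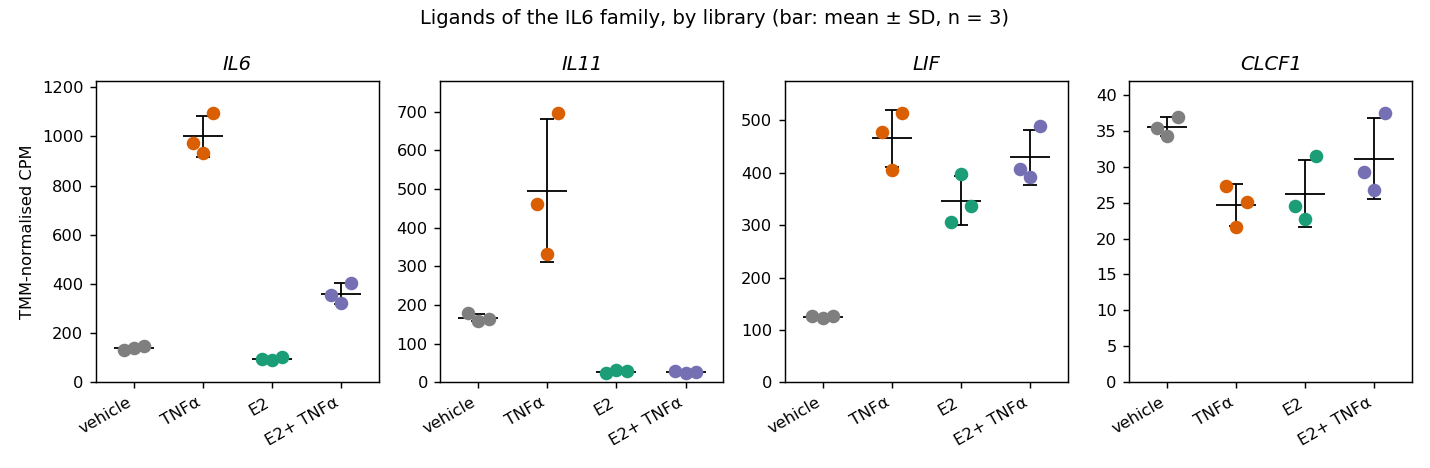
Level of the ligands IL6, IL11, LIF and CLCF1 in each library, in TMM-normalised CPM on linear axes that start at 0. Points are libraries, the horizontal bar is the mean and the whiskers the SD of 3 replicates per group. IL6 in E2+ TNFα (323 to 405 CPM) lies between TNFα (933 to 1094 CPM) and veh (130 to 147 CPM), IL11 is at most 30.6 CPM in both groups with E2, and LIF is lowest in veh.

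Per kilobase of exon, the order of the ligands within a group changed with treatment. Lengths were all exon bases of the counted entry (3969 for IL6, 2378 for IL11, 4612 for LIF and 1973 for CLCF1). The order between genes depends on these lengths, and which transcript forms were present was not tested. In veh, IL11 was highest with 70.4 ± 4.24 RPKM (SD, n = 3), ahead of IL6 (34.8 ± 2.16), LIF (27.1 ± 0.417) and CLCF1 (18.0 ± 0.673). Under TNFα, IL6 reached 252 ± 21.0 RPKM, IL11 209 ± 77.8 and LIF 101 ± 11.9. Under E2+ TNFα, LIF (93.2 ± 11.5 RPKM) and IL6 (90.8 ± 10.6) were within each other's spread and IL11 was at 11.03 ± 1.103. LIF was the most abundant of these transcripts in E2 alone, with 75.1 ± 10.1 RPKM against 24.2 ± 1.88 for IL6 and 11.6 ± 1.46 for IL11.

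The bases just before the start sites of IL6 and IL11 are shown because TNFα signals through NFκB and AP-1 factors, whose motifs were among those searched. Whether these sequences have a part in the changes of IL6 and IL11 was not tested. The windows hold the 250 bases upstream of the start (RefSeq, GRCh38.p14), at chr7:22726950-22727199 on the plus strand for IL6 and chr19:55370464-55370713 on the minus strand for IL11. Both are printed 5′ to 3′ with the matched motif in capitals, GGGNNNTTCC (NFκB) in IL6 and TGANTCA (AP-1) in IL11.
IL6: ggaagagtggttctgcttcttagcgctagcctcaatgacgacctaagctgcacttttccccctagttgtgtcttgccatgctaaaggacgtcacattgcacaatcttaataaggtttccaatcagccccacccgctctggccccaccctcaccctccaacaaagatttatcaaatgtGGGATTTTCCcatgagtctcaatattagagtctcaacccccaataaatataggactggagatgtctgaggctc
IL11: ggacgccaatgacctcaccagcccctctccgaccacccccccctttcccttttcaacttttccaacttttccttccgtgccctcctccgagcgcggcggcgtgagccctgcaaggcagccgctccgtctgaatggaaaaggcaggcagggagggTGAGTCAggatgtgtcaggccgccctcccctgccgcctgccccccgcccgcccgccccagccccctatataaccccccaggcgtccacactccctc
The IL6 window lies inside the span of the counted gene, which begins at an upstream start, and the IL11 window ends where the counted gene begins. The IL6 match spans bases 73 to 64 before the start and the IL11 match bases 96 to 90. Searched on both strands, GGGNNNTTCC was found in 5.67% and TGANTCA in 6.57% of 35116 promoter windows of this length, so each match is a common one. Of the 10 genes, 8 had a window (IL11, IL6, IL6R, IL6ST, LIFR, OSMR, SOCS3 and STAT3, 11 windows in all), and LIF and CLCF1 had none. The STAT motif TTCNNNGAA (6.57% of windows) was in 2 of the LIFR windows, and the estrogen response element GGTCANNNTGACC (0.0399% of windows) was in none. The letters were chosen with the sequences in view, and a match in this window describes the sequence only.

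Of the receptor chains, IL6R, the chain specific to IL6 (chr1:154405193-154469450, plus strand), was low where IL6 was highest: the pair changed in opposite directions in TNFα against veh and in E2+ TNFα against TNFα, and in the same direction in E2+ TNFα against E2. It was 25.6, 27.4 and 25.3 CPM in veh, 5.98, 4.72 and 6.96 CPM in TNFα, 20.3, 19.1 and 24.8 CPM in E2 and 33.1, 29.2 and 36.4 CPM in E2+ TNFα. All 4 groups were separate, TNFα lowest and E2+ TNFα highest. E2+ TNFα against TNFα gave 2.49 (SE 0.17, 5.62-fold higher, adjusted p = 2.70e-08) and TNFα against veh -2.15 (SE 0.17, 4.45-fold lower, adjusted p = 5.65e-08). These values were 2.54 and -2.31 with GC and length trends removed. Against E2, E2+ TNFα was 0.61 higher (adjusted p = 0.0613), and E2 against veh was -0.28 (adjusted p = 0.129), or -0.35 (adjusted p = 0.0139) with GC and length trends removed. E2+ TNFα against veh was 0.34 (adjusted p = 0.0657) and 0.23 with trends removed.

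IL6ST encodes gp130, the shared chain of these receptors (chr5:55935095-55994993, minus strand). It stood at 127, 259 and 196 CPM in veh, 23.2, 21.1 and 24.7 CPM in TNFα, 20.9, 26.1 and 14.7 CPM in E2 and 33.1, 41.8 and 15.4 CPM in E2+ TNFα. Every veh library was above all 9 others, the veh replicates differed among themselves, and the treated groups overlapped. The fitted differences against veh were -3.25 for E2 (adjusted p = 4.37e-07), -3.08 for TNFα (adjusted p = 7.13e-07) and -2.69 for E2+ TNFα (adjusted p = 2.35e-06). The exons of IL6ST are 36.1% GC, the lowest of the 10 genes, and with GC and length trends removed the same differences were -0.33 (adjusted p = 0.171), -0.24 (adjusted p = 0.271) and -0.41 (adjusted p = 0.0713), which ended all 3 calls. Among treated cells, E2+ TNFα against TNFα was 0.39 (95% interval -0.27 to 1.04, adjusted p = 0.347).

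LIFR, which joins gp130 to bind LIF (chr5:38474963-38595405, minus strand), had the fewest reads of the 10 genes. Its level was 20.4, 40.0 and 32.3 CPM in veh, 1.91, 3.29 and 2.75 CPM in TNFα, 0.615, 1.75 and 2.26 CPM in E2 and 3.52, 4.05 and 2.12 CPM in E2+ TNFα. As with IL6ST, veh was above all others and the treated groups overlapped. The E2 libraries held 9, 11 and 25 reads of it. The difference from veh was -4.40 for E2 (SE 0.42, adjusted p = 1.98e-07), -3.54 for TNFα (adjusted p = 5.55e-07) and -3.27 for E2+ TNFα (adjusted p = 1.14e-06). With GC and length trends removed (LIFR exons are 38.6% GC) these were -1.81, -1.06 and -1.15, and the E2 difference alone kept its call. E2+ TNFα against E2 was 1.13 (95% interval 0.20 to 2.05, adjusted p = 0.170), and 1.65 (adjusted p = 0.0728) without E2 replicate 3. It ran from 0.62 to 1.26 over the alternatives that used all libraries.

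OSMR, the oncostatin M receptor chain (chr5:38845858-38944414, plus strand), had per kilobase the highest mean level of the 4 receptor chains in every group, at 24.1 to 36.3 RPKM against at most 18.9 RPKM for IL6ST. Its libraries were at 226, 281 and 250 CPM in veh, 166, 164 and 172 CPM in TNFα, 160, 179 and 230 CPM in E2 and 258, 226 and 210 CPM in E2+ TNFα. TNFα lay below veh and E2+ TNFα, while E2 overlapped the other 3 groups. E2+ TNFα was above TNFα by 0.47 (adjusted p = 0.0152). Against veh OSMR was at -0.59 in TNFα (adjusted p = 0.00106) and -0.41 in E2 (adjusted p = 0.0130), but at 0.46 and 0.78 with GC and length trends removed. E2+ TNFα against veh was -0.13 (adjusted p = 0.413) and 0.85 with trends removed, so its direction against veh depends on the processing.

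STAT3 (chr17:42313324-42388503, minus strand), the factor that carries the signal to the nucleus, passed the test in no comparison between groups. It was 163, 160 and 162 CPM in veh, 173, 168 and 173 CPM in TNFα, 145, 136 and 175 CPM in E2 and 173, 161 and 188 CPM in E2+ TNFα. The E2 range took in veh and overlapped both TNFα groups. Over the 5 comparisons the largest difference was 0.19 (E2+ TNFα against E2, 95% interval -0.05 to 0.43, adjusted p = 0.372), and E2+ TNFα against TNFα was 0.02 (-0.22 to 0.26). Against veh it was at -0.09 in E2, and at -0.15 (adjusted p = 0.0458) there with GC and length trends removed.

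SOCS3, the inhibitor that STAT3 induces (chr17:78356777-78360079, minus strand), was high only under TNFα without E2. Its libraries stood at 29.9, 30.4 and 28.0 CPM in veh, 64.4, 55.1 and 69.0 CPM in TNFα, 28.6, 24.4 and 23.6 CPM in E2 and 20.5, 17.3 and 23.8 CPM in E2+ TNFα. TNFα was above all other groups, E2 overlapped veh and E2+ TNFα, and E2+ TNFα was below veh. E2+ TNFα against TNFα gave -1.61 (SE 0.15, 3.05-fold lower, adjusted p = 5.45e-07). It was -1.51 with GC and length trends removed, and -1.499 without E2+ TNFα replicate 2, which is just under the size threshold. TNFα raised SOCS3 by 1.09 against veh (adjusted p = 5.43e-06), a change too small for a call, which was 0.25 once GC and length trends were removed. E2+ TNFα against veh was -0.52 (adjusted p = 0.00410) and E2 against veh -0.20 (adjusted p = 0.217). With trends removed these were -1.25 and -1.05. E2+ TNFα against E2 was -0.32 (adjusted p = 0.255).

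**Figure D2:**
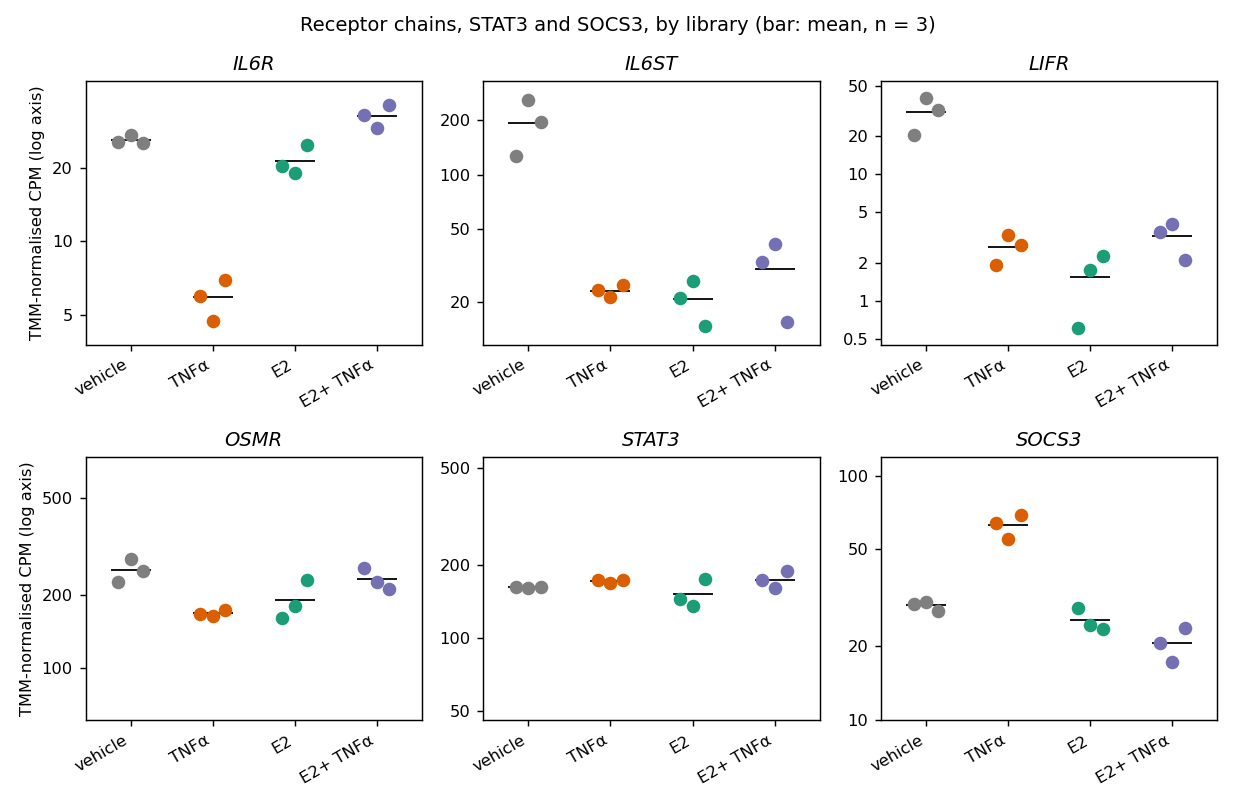
Level of the receptor chains IL6R, IL6ST, LIFR and OSMR, of STAT3 and of SOCS3 in each library, in TMM-normalised CPM on log axes. Points are libraries and the bar is the mean of 3 replicates per group. As plotted, with GC and length trends not removed, IL6ST and LIFR are high only in veh (127 to 259 CPM and 20.4 to 40.0 CPM). IL6R is low only in TNFα (4.72 to 6.96 CPM), and SOCS3 is high only in TNFα (55.1 to 69.0 CPM). With those trends removed, IL6ST had no call against veh, and SOCS3 in TNFα was above veh by a log2 fold change of 0.25.

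Counted together, significantly regulated genes were those with a log2 fold change of at least 1.5 in either direction, p below 0.05 and adjusted p at most 0.1. By this rule 3 of the 10 genes were regulated in E2+ TNFα against TNFα (IL6R higher, IL11 and SOCS3 lower), where 5.56% of all tested genes were, and 1 in E2+ TNFα against E2 (IL6 higher), where 0.407% were. Against veh the counts were 6 in TNFα (IL6, LIF and IL11 higher, IL6R, IL6ST and LIFR lower), 3 in E2 (IL11, IL6ST and LIFR lower) and 4 in E2+ TNFα (LIF higher, the same 3 lower), with 26.7%, 30.5% and 25.1% of all tested genes past the rule. At an adjusted p of at most 0.1 without regard to size, 5 of the 10 genes passed in E2+ TNFα against TNFα (45.3% of all tested genes), 2 in E2+ TNFα against E2 (6.00%), 9 in TNFα (81.9%), 7 in E2 (81.8%) and 7 in E2+ TNFα (80.6%) against veh. The shares of all genes against veh are high, and with GC and length trends removed the count for TNFα was 2 where 10.4% of all tested genes passed. The median difference of the 10 genes between E2+ TNFα and TNFα was 0.15, and that of all tested genes 0.04. It was -0.79 over the 4 ligands, which ran from -4.24 (IL11) to 0.34 (CLCF1). Over the 4 receptor chains it was 0.43, with a range from 0.28 (LIFR) to 2.49 (IL6R).

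**Figure D3:**
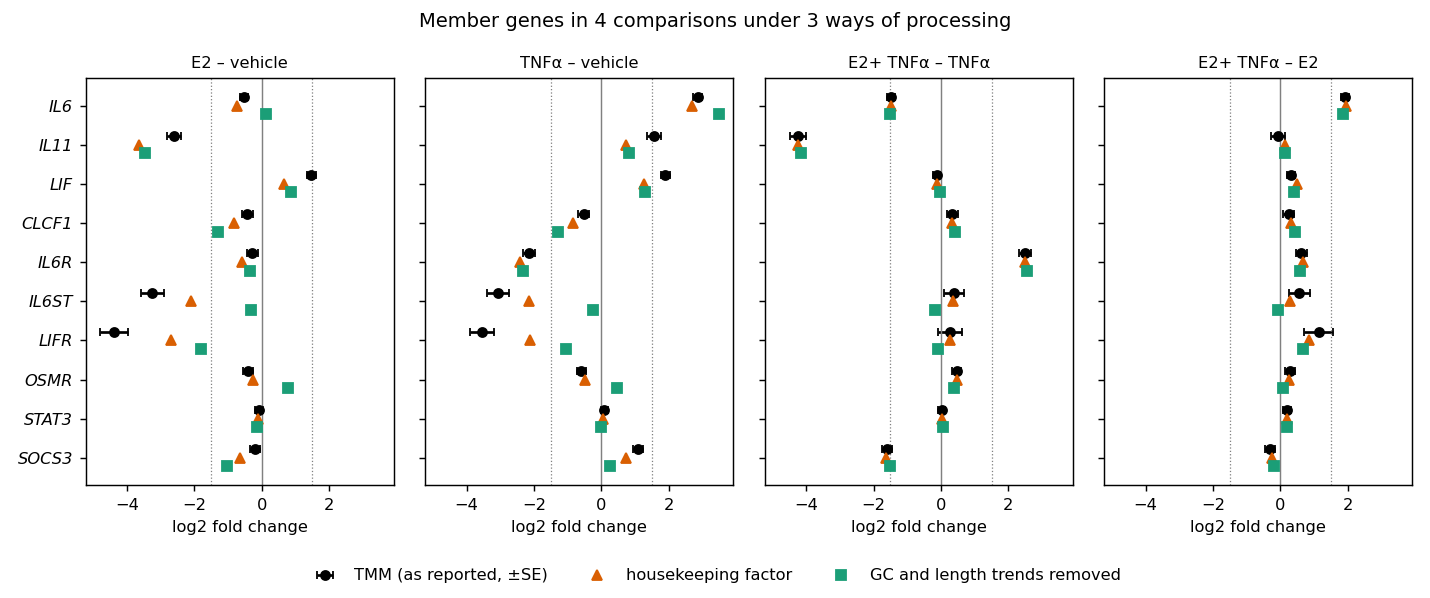
Log2 fold change of the 10 genes in 4 comparisons, as reported (black, with SE), with 1 factor from housekeeping genes removed (triangles) and with GC and length trends removed (squares). The dotted lines mark 1.5 in either direction. In E2+ TNFα against TNFα the 3 settings nearly coincide for IL11 (-4.24 as reported, -4.16 with trends removed) and IL6R (2.49 and 2.54), while against veh IL6ST moves from -3.25 to -0.33 in E2.

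Whether TNFα acted differently with and without E2 was tested as the interaction of the agents, the TNFα change with E2 minus that without it. It was past the 3 thresholds for 5 of the 10 genes, where 31.8% of all tested genes were, and for 9 at an adjusted p of at most 0.1 (76.6%). IL6R gave 2.77 (SE 0.24, adjusted p = 3.68e-07) and 2.89 with GC and length trends removed. The difference was -0.95 for IL6 (adjusted p = 0.000143), which became -1.65 with trends removed, and -1.63 for IL11 (adjusted p = 0.000156), which became -0.68. IL6ST gave 3.64 and LIFR 4.67, and IL6ST was at 0.17 with trends removed. The veh libraries enter this contrast.

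The ligands were next set against their receptor chains within each library, as ratios of RPKM, which describe transcripts and not the amounts of protein. The ratio of IL6 to IL6R had a geometric mean of 8.83 in veh, 286 in TNFα, 7.50 in E2 and 18.2 in E2+ TNFα. On the log2 scale the libraries spread by an SD of 0.03 to 0.18 within a group, and the TNFα and E2+ TNFα libraries did not overlap. For IL11 over IL11RA, its specific chain, the ratio was 66.0 in veh and 190 in TNFα, and 9.56 and 8.76 in E2 and E2+ TNFα. IL11RA itself was low, at 1.502 to 2.84 CPM over all libraries. LIF over LIFR was 10.3 in veh and 439, 628 and 336 in TNFα, E2 and E2+ TNFα, where LIFR had few reads. LIF over IL6ST was 1.49 in veh and 44.8, 38.2 and 34.2 in the treated groups, and IL6 over IL6ST was 1.92, 112, 12.3 and 33.4 in veh, TNFα, E2 and E2+ TNFα. The ratios over IL6ST and LIFR carry the veh difference of those chains, given above with and without GC and length trends.

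**Figure D4:**
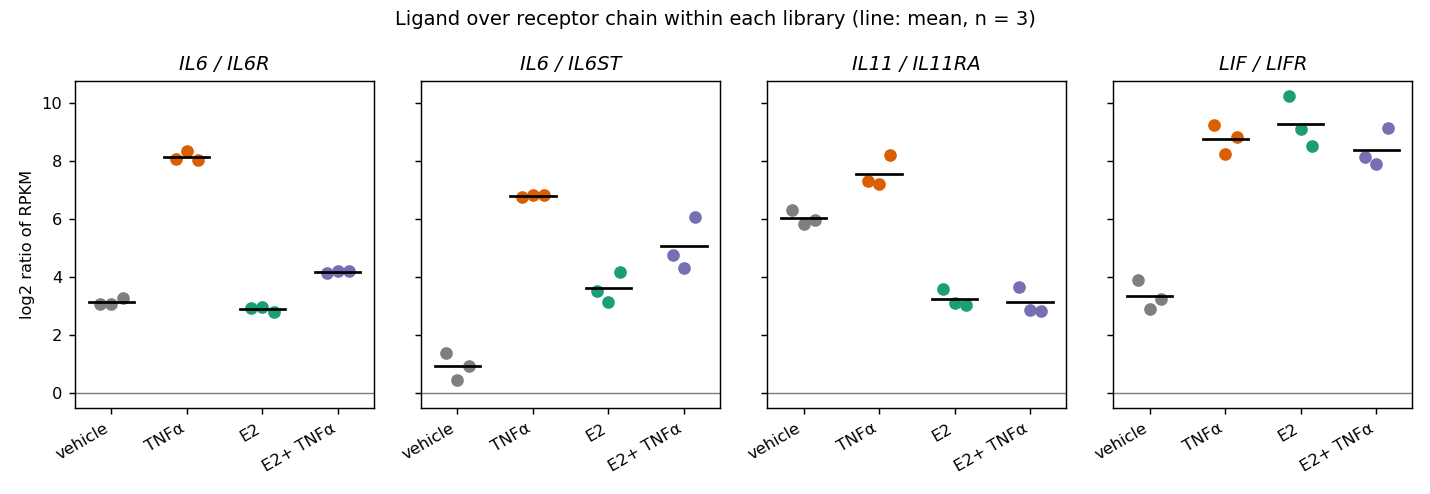
Log2 ratio of ligand to receptor chain within each library, from RPKM, for IL6 over IL6R, IL6 over IL6ST, IL11 over IL11RA and LIF over LIFR. Points are libraries and the line is the mean of 3 replicates. IL6 over IL6R is highest in TNFα (geometric mean 286) and drops to 18.2 in E2+ TNFα, and IL11 over IL11RA drops from 190 to 8.76.

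The other genes of the pathway were taken from lists of 57 symbols, of which 49 were in the table and 48 were tested. In E2+ TNFα against TNFα, 5 of these 48 were significantly regulated (3 higher, 2 lower), against 5.56% of all tested genes. At an adjusted p of at most 0.1 without regard to size, 12 rose and 15 fell, against 45.3% of all tested genes. CISH, a SOCS-type inhibitor of STAT5 signalling, rose by 3.50 (adjusted p = 6.27e-07) and JAK1, the main kinase at gp130, by 1.59 (adjusted p = 2.94e-07). SOCS2, an inhibitor of growth hormone receptor signalling, fell by 2.74 (adjusted p = 1.47e-06) and the angiogenic factor VEGFA by 1.62 (adjusted p = 3.15e-07). The 9 inhibitors of JAK and STAT signalling therefore did not move as one, with 5 rising and 1 falling at that adjusted p. Of 19 genes known to respond to STAT3, 2 rose and 8 fell at that adjusted p, against the same 45.3%, and 1 of each was past the size threshold.

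Adding TNFα to E2-treated cells regulated 1 of the 48, against 0.407% of all tested genes. This was the acute-phase protease inhibitor SERPINA3, by 1.60 (adjusted p = 0.0173), which lost its call without E2 replicate 1 or E2+ TNFα replicate 3. SERPINA3 also had the largest change of the 48 against veh in each treated group, by 5.59 in E2+ TNFα, 5.32 in TNFα and 3.997 in E2, and by 5.08, 4.77 and 3.22 with GC and length trends removed. Its veh libraries held 8, 4 and 18 reads. Against veh, 13 of the 48 were regulated in TNFα, 13 in E2+ TNFα and 12 in E2, where 26.7%, 25.1% and 30.5% of all tested genes were. CISH rose by 3.15 in E2 (adjusted p = 2.17e-07) and by 2.67 in E2+ TNFα (adjusted p = 1.16e-06), and by 2.58 and 2.196 with trends removed. CEBPD and CEBPB, transcription factors of the acute-phase response, rose in TNFα by 3.90 (adjusted p = 1.69e-09) and 2.49 (adjusted p = 9.60e-09), and ZC3H12A, the nuclease Regnase-1 that degrades IL6 mRNA, by 2.82 (adjusted p = 1.25e-09). With GC and length trends removed CEBPD was at 2.77, ZC3H12A at 2.29 and CEBPB at 1.27, which ended the CEBPB call. CEBPD rose in E2+ TNFα against veh by 2.50 (adjusted p = 5.37e-08), and by 1.42 with trends removed, under the size threshold. PTPN11, the phosphatase SHP2 bound by gp130, fell by 2.74 in E2 (adjusted p = 9.78e-09) and by 2.24 in E2+ TNFα (adjusted p = 6.67e-08), and had no call in either with trends removed (-1.37 in E2). HIF1A, the hypoxia-inducible factor, fell by 2.45 in E2 (adjusted p = 4.39e-08) and was at -0.58 with trends removed. In the interaction 14 of the 48 were past the thresholds, where 31.8% of all tested genes were, led by SERPINA3 (-3.73), CEBPD (-2.92), PTPN11 (2.75) and HIF1A (2.49), which were at -2.90, -1.61, 1.28 and 0.38 with trends removed.

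Each main ligand was last compared with all genes of a mean of at least 1 CPM by Pearson's r of log2 CPM over the 12 libraries, which share group, depth and base composition. Closest to IL6 were IRAK2, a kinase of interleukin-1 receptor signalling (r = 0.994), the cytokine CSF2 (r = 0.989) and BBC3, a pro-apoptotic BCL2 family gene (r = 0.986). IRAK2 was at 20.8 ± 1.11 CPM in veh, 126 ± 7.19 in TNFα, 17.8 ± 0.481 in E2 and 48.8 ± 4.78 in E2+ TNFα (SD, n = 3). Closest to IL11 were the keratin KRT81 (r = 0.993), the corepressor subunit TBL1X (r = 0.991) and the alanyl-tRNA synthetase AARS (r = 0.990). KRT81 was at 22.5 ± 2.53 CPM in veh, 59.4 ± 19.2 in TNFα, 4.61 ± 0.172 in E2 and 3.64 ± 0.853 in E2+ TNFα. For LIF they were INAVA (r = 0.991), the TGFβ-induced gene PMEPA1 (r = 0.991) and the transcription factor SP2 (r = 0.985). These 11193 genes were ranked after the fact, and the values describe likeness over these libraries only.

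Neighbouring transcripts limit what the counts can assign. IL6 shares 870 exon bases with the antisense gene IL6-AS1, IL6ST 797 with a gene on the opposite strand, LIFR 331 with LIFR-AS1 and LIF 175 with LIF-AS2. The library kit keeps the strand, but whether counting used it is not given in the sources used here, and none of these neighbours has an entry in the table. IL6R and IL6ST have pseudogenes on chromosomes 9 and 17 (IL6RP1 and IL6STP1).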

How the data were processed

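RNA-seq of the 12 libraries was analysed from the deposited counts, whole numbers of reads per gene that the authors obtained with TopHat2 2.1.0 (hg38) and featureCounts, per the labels. The annotation and the strand setting of counting are not given in the sources used here. The authors describe batch correction with RUVseq and housekeeping genes, and the deposited counts are uncorrected. The deposited table held 12567 entries, of which 46 that repeated another line and 70 that gave one locus and its counts under a second symbol were left out. It also holds exon coordinates, from which length, GC content and RPKM were computed.

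The 11303 genes that reached an RPKM of 1 in 3 or more libraries went into a fit with edgeR 4.0.16 (TMM normalisation, quasi-likelihood F test, 4 group means in 1 fit, Benjamini-Hochberg adjustment over all 11303 genes, R 4.3.3). The adjusted p-values in the text come from this test unless a setting is named. The test was checked on simulated data with the TNFα and veh design, where 199 of 200 genes changed by a log2 fold change of 2 were recovered and 0 others called. At an adjusted p of at most 0.1 without regard to size, 20 unchanged genes passed. The simulated counts had the same dispersion for every gene, no GC trend and no shift of the veh libraries. The check therefore cannot speak to such trends or shifts, or to a spread that differs between genes. Alternatives were DESeq2 1.42.0, DESeq2 size factors, library size only, no filter, at least 10 counts in every library, 1 unwanted factor from 20 housekeeping genes, a replicate block, and leaving out each library. Removal of loess trends with exon GC and length (span 0.3), alone or with the block, and a fit without veh were added after seeing the data. Depth was 7.65 to 39.9 M reads, and replicates of a group differed by 9.49 to 66.0 times the sampling noise (chi-square over degrees of freedom), so no library was a copy of another.

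The 10 genes and the pathway lists were chosen with earlier results of these data known. The text names every one of the 10 genes, up to 4 other pathway genes per comparison with the largest change among those past the thresholds, and the 3 genes closest to each of IL6, IL11 and LIF. Promoter windows came from RefSeq.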

Additional observations from a re-analysis of the deposited data

Results flagged for a closer look

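The effect of TNFα differed with and without E2 for 9 of the 10 genes at an adjusted p of at most 0.1 by the edgeR interaction test, where 76.6% of all tested genes passed. On the log2 scale, as the TNFα change with E2 minus the change without E2, the difference was -0.95 for IL6, -1.63 for IL11, -1.59 for LIF, 0.77 for CLCF1 and -1.41 for SOCS3. It was 2.77 for IL6R, 3.64 for IL6ST, 4.67 for LIFR and 0.88 for OSMR. With GC and length trends removed the values were -1.65 for IL6, -0.68 for IL11, -0.91 for LIF, 1.72 for CLCF1, -0.46 for SOCS3, 2.89 for IL6R, 0.17 for IL6ST, 1.71 for LIFR and -0.38 for OSMR. The veh libraries enter this contrast. In at least 1 alternative setting that used all libraries, IL6ST, IL11 and OSMR did not reach an adjusted p of 0.1, so the count of 9 depends on the processing. The cause of these shifts was not tested.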

How the results depend on the processing

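Over the alternatives, 913 of 974 values for the 60 results of single genes (10 genes in 6 comparisons) kept their call or lack of one. Among them were 22 that changed sign with an adjusted p over 0.1 in both fits. The total includes results without a call and fits that left out 1 library. In the setting with GC and length trends removed, 40 of 60 values stayed the same, 11 lost their call, 4 gained one and 5 changed sign. With GC and length trends removed, IL6 in E2 against veh turned to 0.12, and OSMR turned to 0.78 (E2), 0.46 (TNFα) and 0.85 (E2+ TNFα) against veh, and to -0.38 in the interaction. The same values with the replicate block added were 0.12, 0.78, 0.46, 0.85 and -0.38. The number of the 10 genes past the thresholds went from 6 to 2 in TNFα against veh with GC and length trends removed (2 with the block added), and from 4 to 2 in E2+ TNFα against veh with trends removed, with the block added, or with the housekeeping factor (2). Over all 11303 genes the calls fell too, from 3016 to 1180 in TNFα and from 2837 to 1227 (trends removed) or 1469 (housekeeping factor) in E2+ TNFα. In the interaction the number of the 10 genes went from 5 to 3 with library size only and with the housekeeping factor. The shares of all tested genes there were 32.3% and 14.2%. When each library was left out in turn, 1 to 2 of the 10 genes passed in E2+ TNFα against E2, LIFR being the gene added without E2 replicate 3, and 4 to 6 in the interaction. The shares of all tested genes ran from 0.301% to 0.743% and from 28.8% to 34.7%. Of the other pathway genes, the housekeeping factor, trends removed, and trends removed with the block called 6, 4 and 4 in TNFα, 6, 4 and 4 in E2 and 4, 2 and 2 in E2+ TNFα against veh, and 6, 5 and 5 in the interaction, against 13, 12, 13 and 14 as reported. In E2+ TNFα against E2 the 1 pathway gene, SERPINA3, was left out by the minimum of 10 counts and so not tested. The count there was 0, where 0.224% of all tested genes passed. The count was 0 to 1 when each library was left out in turn. Library size only shifted the median of all genes by -0.19 in TNFα, -0.26 in E2+ TNFα and -0.38 in E2 against veh, by 0.13 in E2+ TNFα against E2 and by 0.31 in the interaction. The cause of the other changes was not tested. Of the 10 genes, the filter of at least 10 counts in every library left LIFR out and gave no value for it. The correlation of same-numbered deviations ran from -0.54 to 0.52 over 18 pairs of libraries. Differently numbered pairs were not compared, so this range cannot tell whether replicate numbers pair the samples. The replicate block without other changes altered no call among the 10 genes. Without the veh libraries, all values in E2+ TNFα against TNFα and against E2 kept their calls. Depth limits LIFR most, with 9 reads in E2 replicate 1.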
